A study of Mus musculus with 12 samples.

Results

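The genes described here encode G protein-coupled receptors and the proteins that carry their signals inside the cell: G protein subunits, regulators of G protein signalling, adenylyl and guanylyl cyclases, phosphodiesterases, phospholipase C, diacylglycerol kinases and the proteins that anchor protein kinase A. Members were chosen by gene symbol (the families Gpr, Gprin, Gna, Gnb, Gng, Rgs, Adcy, Gucy, Pde, Plc, Dgk, Akap, Arrb and Adgr, and the adenosine, cannabinoid, opioid, somatostatin, sphingosine phosphate and Frizzled receptors), a rule that uses no tag count. This gave 69 of the 3366 named 5′ UTRs in the tables. They held 442 of 15767 tags, which is 2.80% of the tags on 2.05% of the 5′ UTRs. The symbol rule leaves out metabotropic receptors with other names, which are counted separately near the end.

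The assay was CLIP, in which ultraviolet light crosslinks a protein to the RNA it touches, the protein is immunoprecipitated and the attached RNA fragments are sequenced as tags. The protein was eIF4G2, a relative of the scaffold eIF4G that takes part in starting translation, and the cells were mouse primary cortical neurons at day 12 of culture, 3 dishes for each replicate. Resting neurons were compared with depolarized neurons. The latter had been silenced for 2 h with TTX and DL-AP5 (blockers of sodium channels and NMDA receptors). They were then depolarized with 55 mM KCl for 1 h and allowed to recover for 30 min. By the paper's methods the recovery medium again held both blockers. Both groups received cycloheximide, which halts ribosomes, for 2 min before harvest. The neurons came from embryos of albino CD-1 mice, whose sex was not determined. The labels describe the silencing step for depolarization only, and whether resting cultures were also silenced is not given in the sources used here. If they were not, effects of silencing and of KCl cannot be told apart.

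There were 6 resting and 5 depolarized libraries. The table labelled depolarized replicate 5 held the same values as resting replicate 5 under the heading of a resting library, and it was counted once, as resting. Totals ran from 306 to 3224 tags at rest and from 264 to 5240 after depolarization, so that 3 tags stood for 573 CPM (tags scaled to a common library size) in the deepest library and for 11364 CPM in the shallowest. The pair of replicate 1 libraries alone held 54.8% of the member tags and 53.7% of all tags. Of the neuronal marker genes 5 of 8 were listed, with 46 resting and 122 depolarized tags, of which Syt1 alone held 40 and 103. Snap25, Tubb3 and Nefl were not listed. Of 5 excitatory neuron markers 3 were listed, with 1 resting and 8 depolarized tags. Of 5 inhibitory neuron markers 4 were listed, with 5 and 2. Of the oligodendrocyte markers 0 of 7 were listed, and of the endothelial markers 0 of 3. Of 6 astrocyte markers 2 were listed, Slc1a2 with 10 tags in 3 libraries and Sox9 with 1 tag, and Gfap, Aqp4 and Aldh1l1 were not, and of 5 microglial markers 1 was listed, Aif1 with 1 tag. No RNA abundance is measured here, so more binding per transcript and more transcript cannot be told apart.

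G protein-coupled receptors act as exchange factors for heterotrimeric G proteins. Stimulatory subunits activate adenylyl cyclase, which makes cAMP, inhibitory subunits reduce its activity, and the Gq class activates phospholipase C, which makes diacylglycerol and inositol trisphosphate. Phosphodiesterases degrade the cyclic nucleotides, RGS proteins speed GTP hydrolysis by the alpha subunits, and A-kinase anchoring proteins hold protein kinase A close to its substrates. In cortical neurons these pathways set excitability, transmitter release and plasticity.

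The hexamer CGCGGC, a GC-rich sequence that the study connects with eIF4G2 binding, was found in the annotated 5′ UTR of 33 of the 69 members (47.8%) and of 1219 of 3315 listed genes (36.8%). It was searched on the transcript strand only and overlapping matches were counted. These shares are not adjusted for length, and member 5′ UTRs were longer (median 449 and 306 bases). Among the 12 members with at least 10 tags, 6 held it (50.0%), compared with 52.7% of all 5′ UTRs with that many tags. Gnas counts here as lacking it, since its 5′ UTR in the transcript used has 3 bases and could not hold a match. With the longest 5′ UTR of any transcript, 7 of the 12 held it (58.3%, compared with 51.4%), and that of Gnas held 5 copies. The first hexamer in each of these 6 is shown in capitals within 30 bases of its 5′ UTR, written 5′ to 3′ on the transcript strand, because these are the well-tagged members in which the sequence and the tags can be set side by side. The bases come from GENCODE M21 transcripts (GRCm38, mm10).
Pde7a: cgcgcccgtgctCGCGGCccgggccagctc
Gpr85: gaggcggccgtcCGCGGCacggtggcttcg
Adgrl1: ggcgggggcctgCGCGGCcgcccgggcagc
Gnaz: gtcacgtcctcgCGCGGCcgccggcacccg
Adgrb1: ccggagcggcggCGCGGCcggagagggagc
Gnaq: gCGCGGCggccggctgcccggtttgcgagc

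The Pde7a window is at chr3:19311244-19311273 (minus strand), the Gpr85 window at chr6:13839006-13839035 (minus), the Adgrl1 window at chr8:83900398-83900427 (plus), the Gnaz window at chr10:74967262-74967291 (plus), the Adgrb1 window at chr15:74516431-74516460 (plus) and the Gnaq window at chr19:16132831-16132860 (plus). All 6 lie in exon 1 except that of Gpr85, which lies in exon 2. Gnaq held 5 copies of the hexamer, Pde7a, Gpr85 and Adgrb1 held 3 each, Gnaz 2 and Adgrl1 1. Of the other well-tagged members, Gpr162, Adgrl3, Gnb1, Gpr26 and Gng4 had none in the 5′ UTR examined. The tables give 1 number per 5′ UTR and not the place of each tag, so a match describes the sequence and is not a mapped binding site.

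Member 5′ UTRs had a median length of 449 bases, compared with 306 over all listed genes, and a nearly equal GC content (66.0% and 65.9%). An upstream ATG was found in 56 of 69 (81.2%) and in 66.6% of all, and there were 8.45 ATGs per kb in members and 6.46 in all. Gpr85 had 22 in 1215 bases, Gpr162 7 in 867 and Adgrl3 6 in 513, whereas Pde7a had 0 in 321 bases that were 82.2% GC. Per kb of 5′ UTR the median member had 6.44 tags and the median listed gene 6.93. The densest members were Pde7a with 128 tags per kb, Gnb1 with 68.0, Adgrl3 with 56.5 and Gpr162 with 43.8. Gnas is left out of this order, because its longest protein-coding transcript has a 5′ UTR of only 3 bases and its longest annotated 5′ UTR has 2362.

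Tags were spread thinly over the members. A single tag was all that 23 of 69 had (33.3%, compared with 40.8% of all listed 5′ UTRs), and 12 had at least 10 (17.4%, compared with 9.42%). Those 12 held 280 of the 442 tags (63.3%). Tags in both conditions were found on 33 members (47.8%, compared with 34.9% of all), in resting libraries only on 21 (30.4% and 27.2%) and in depolarized libraries only on 15 (21.7% and 35.4%). The replicate 1 pair carried tags of 56 members, and 29 members had tags nowhere else.

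**Figure D1:**
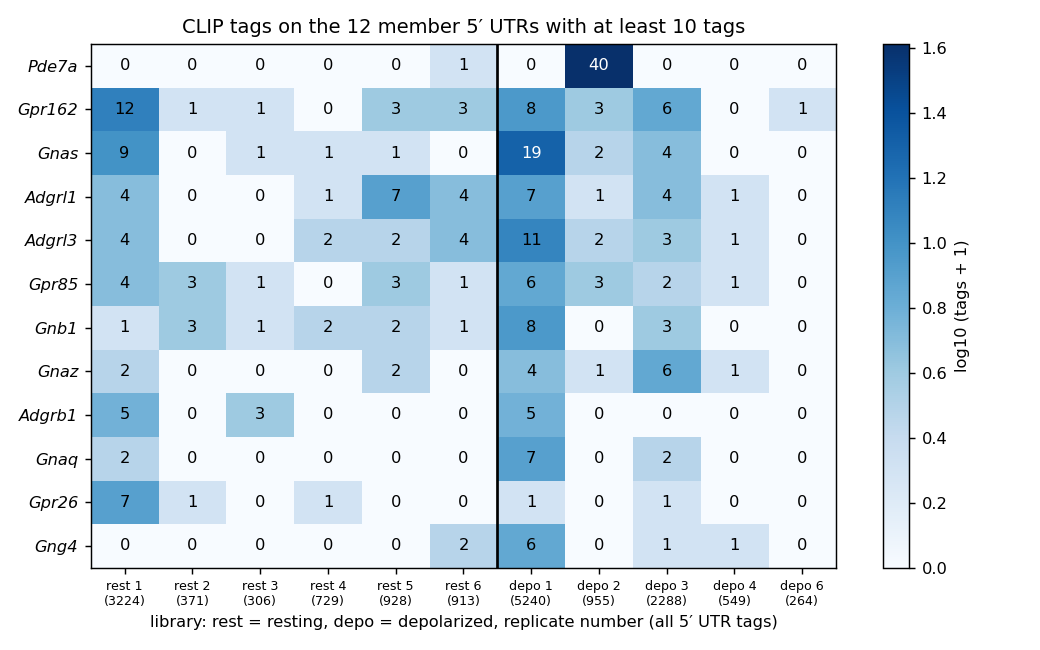
CLIP tags on the 5′ UTRs of the 12 members with at least 10 tags, by library (columns, with each library's total of 5′ UTR tags in brackets). Numbers are tags and the shade is log10 of tags plus 1. The 40 Pde7a tags of depolarized replicate 2 stand alone in their row, while Gpr162 has tags in 9 of 11 libraries.

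As a share of each library's tags, the members took 2.88 ± 1.15% at rest (SD, n = 6) and 2.61 ± 1.94% after depolarization (n = 5). Resting libraries 1 to 6 held 3.35, 2.43, 4.90, 1.51, 2.69 and 2.41%, and the depolarized libraries 1, 2, 3, 4 and 6 held 2.56, 5.86, 2.23, 1.64 and 0.758%. The ranges overlapped, and the highest value, in depolarized replicate 2, came from Pde7a. Without that gene, depolarized replicate 2 stood at 1.68% and the means were 2.86 ± 1.16% and 1.77 ± 0.686%. The depolarized library was then below the resting library of the same number in 4 of 5 pairs, the exception being replicate 4 (1.51 and 1.64%). With Pde7a it was below in 3 of 5. No member with mostly resting tags was left out in turn, and leaving out Pde7a lowers mainly the depolarized side. The share in depolarized replicate 6 rests on 2 tags. Within replicates 1 to 3 the means with all members were 3.56% at rest and 3.55% after depolarization, and within replicates 4 to 6 they were 2.20 and 1.20%. Without Pde7a the means were 3.56 and 2.15% in replicates 1 to 3, and 2.17 and 1.20% in replicates 4 to 6.

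**Figure D2:**
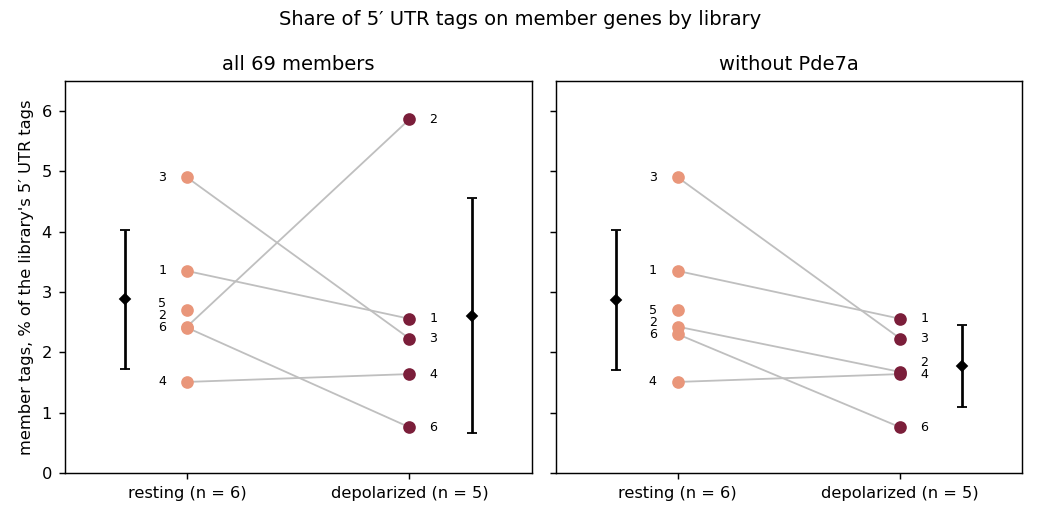
Member tags as a percentage of all 5′ UTR tags in each library, for all 69 members (left) and without Pde7a (right). Points are libraries with their replicate numbers, grey lines join libraries with the same number, and diamonds with bars are the mean and SD. Depolarized replicate 2 moves from 5.86 to 1.68% when Pde7a is left out.

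Receptors were the largest group, with 34 members and 216 tags, 116 at rest and 100 after depolarization. Their share of each resting library, replicates 1 to 6, was 1.99, 1.35, 3.27, 0.823, 1.94 and 1.42%, compared with 1.11, 1.15, 1.05, 0.911 and 0.758% in depolarized replicates 1, 2, 3, 4 and 6. The resting mean was 1.80 ± 0.838% (n = 6) and the depolarized mean 0.995 ± 0.161% (n = 5). All resting libraries other than replicate 4 lay above every depolarized library. In the same order these shares rest on 64, 5, 10, 6, 18 and 13 resting tags and on 58, 11, 24, 5 and 2 depolarized tags. Whether other sets of genes separate as far was not examined. The G protein subunits, 10 members with 111 tags, 39 at rest and 72 after depolarization, took 0.741 ± 0.463% at rest and 0.487 ± 0.361% after depolarization, with overlapping ranges. Set against all 6471 resting and 9296 depolarized tags, their summed share was higher after depolarization, unlike the means. Depolarized replicate 1 held 50 of the 72. These group shares are given without a test.

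**Figure D3:**
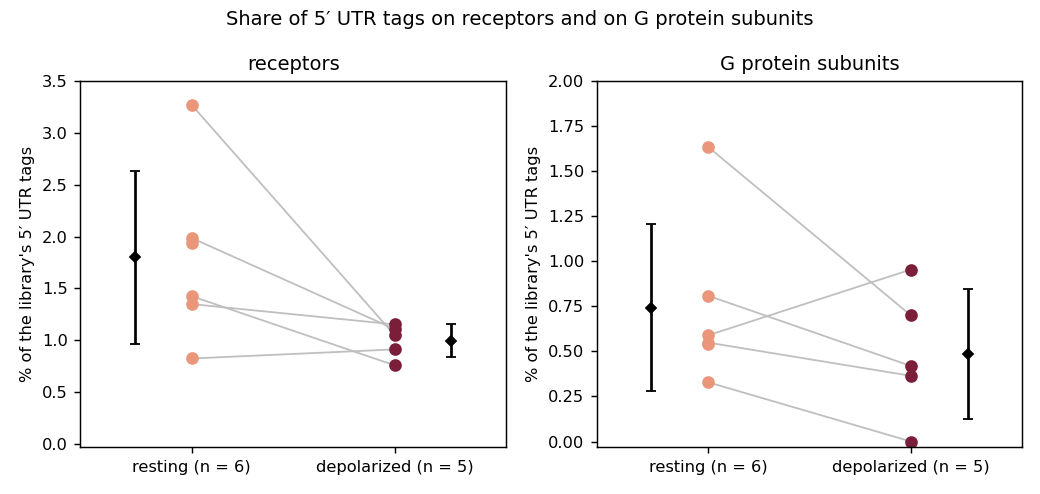
Share of each library's 5′ UTR tags on the 34 receptors (left) and the 10 G protein subunits (right). Points are libraries, grey lines join libraries with the same replicate number, and diamonds with bars are the mean and SD. The depolarized receptor shares lie between 0.758 and 1.15%, and of the resting libraries only replicate 4, at 0.823%, lies in that range. The lowest depolarized receptor share, in replicate 6, rests on 2 tags.

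Differences between the conditions were tested in 2 ways. The pooled test took the study's binomial test on depth-normalized tags and its threshold of P below 0.2. Summing tags per condition and the exact two-sided form were choices made here. This test treats each tag as an independent observation and ignores the spread between replicates. By it 3 of 69 members were called higher after depolarization (4.35%) and 5 were called lower (7.25%), against 5.21% and 4.51% of the 3280 5′ UTRs with a tag. The higher members were Pde7a, Gnaq and Gng4, and the lower were Gpr26, S1pr2, Akap17b, Gpr162 and Adgrb1. With so few calls these shares are near the background. The count depends on the scaling, since TMM library sizes gave 6 higher and 2 lower, against 7.1% and 2.74% of all, and unscaled sums, tested against the overall depolarized proportion, gave 2 and 14, against 6.43% and 10.9%. The median pooled log2 fold change was -0.50 over members and 0.33 over all 5′ UTRs, with 28 members above 0 and 41 below.

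The replicate-aware test, edgeR's quasi-likelihood test, was run on the 317 5′ UTRs with at least 10 tags over both conditions, 12 of them members. At an adjusted P below 0.05 it called 0 of the 12 members and 0.0% of all 317. At an unadjusted P below 0.05, 1 member was higher (Pde7a) and 0 were lower, against 7.57% and 0.315% of all. With the replicate number as a block, which the pooling of each pair during library preparation allows, 0 members passed at that level, and the higher calls among all 317 went from 24 to 1 (0.315%), with 0% lower. DESeq2, which gave Pde7a no P value, and limma called 0 members at an unadjusted P below 0.05, where limma called 13.6% of all 317 higher and 0% lower and DESeq2 0.631% in each direction. The exact permutation test over libraries also gave 0 members (smallest P = 0.0541), with 3.15% higher and 0.315% lower among all. None of the 12 members had CPM values that were fully separated between conditions, against 0.315% of all. Over all 317 the edgeR median log2 fold change was 0.52 with TMM and 0.38 with library totals. The 12 members had a median of -0.05 and -0.30 by the same fits, with 6 above 0 and 6 below by TMM, while 66.6% of all were above.

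Gpr162, an orphan receptor, was seen in 9 of 11 libraries, as was Gpr85, more than any other member (chr6:124858444-124863983). In the resting libraries, in order of replicate number, 12, 1, 1, 0, 3 and 3 tags were counted, and depolarized replicates 1, 2, 3, 4 and 6 held 8, 3, 6, 0 and 1. Below, resting tags are listed for replicates 1 to 6 and depolarized tags for replicates 1, 2, 3, 4 and 6. Tags were missing only from the 2 replicate 4 libraries, and the groups overlapped. The depolarized to resting ratio of depth-scaled sums was 0.626 (95% counting interval 0.312 to 1.25), and edgeR gave a log2 fold change of -0.17 ± 0.98 (SE) with an adjusted P of 0.974. Its pooled P of 0.1996 by the exact binomial test lay just inside the threshold, and that of Adgrl1, at 0.2005, just outside. Without replicate 1 the pooled log2 fold change of Gpr162 moved from -0.67 to 0.0010, and the call was also lost with TMM sizes (-0.47), without replicate 6 (-0.70) and with all 12 tables as labelled (-0.59). The pooled log2 fold change of Adgrl1 was -0.82. It passed the threshold without replicate 1 (-1.31), 2 (-0.86), 3 (-1.01) or 4 (-0.92), and was -0.21 without replicate 5.

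Adgrl1 and Adgrl3 encode latrophilins, adhesion receptors of the synapse that bind partners on the facing cell. Adgrl1 (chr8:83900105-83941954) had 4, 0, 0, 1, 7 and 4 resting tags and 7, 1, 4, 1 and 0 depolarized tags. Adgrl3 (chr5:81020138-81825133) had 4, 0, 0, 2, 2 and 4 and 11, 2, 3, 1 and 0. Both were tagged in replicates 1, 4, 5 and 6 at rest and in depolarized replicates 1 to 4, with overlapping levels. The ratios of depth-scaled sums were 0.566 (0.250 to 1.25) for Adgrl1 and 0.986 (0.444 to 2.26) for Adgrl3, and the edgeR adjusted P values were 0.908 and 0.995.

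Adgrb1, a brain adhesion receptor that recognises phosphatidylserine (chr15:74516195-74589465), had 5, 0, 3, 0, 0 and 0 resting tags and 5, 0, 0, 0 and 0 depolarized tags. Its 8 resting tags thus came from replicates 1 and 3, and its 5 depolarized tags from replicate 1. The ratio was 0.435 (0.112 to 1.51), with a pooled exact P of 0.180 and an edgeR adjusted P of 0.854. The pooled log2 fold change was -1.18, and the call was lost without replicate 1 (-5.12), replicate 2 (-1.11) or replicate 3 (-0.18) and with TMM sizes (-0.98).

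Gpr85, a highly conserved orphan receptor of the brain (chr6:13834458-13839942), had 4, 3, 1, 0, 3 and 1 resting tags and 6, 3, 2, 1 and 0 depolarized tags. It was thus tagged in 9 of 11 libraries, with an equal sum of 12 in each condition. Mean CPM was 2820 ± 2882 at rest (SD, n = 6) and 1396 ± 1174 after depolarization (n = 5), and the edgeR adjusted P was 0.956.

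Gpr26, another orphan receptor (chr7:131966460-131994405), had 7, 1, 0, 1, 0 and 0 resting tags and 1, 0, 1, 0 and 0 depolarized tags. Most of its resting tags were in replicate 1, and 3 resting libraries were at 0, as were 3 of the depolarized. The ratio was 0.155 (0.0163 to 0.747), an interval that covers counting error only. The pooled exact P was 0.0225, whereas edgeR gave -1.92 ± 1.22 on the log2 scale with an adjusted P of 0.673. The pooled log2 fold change was -2.62. It was -3.22 without replicate 3 and -1.23 without replicate 1, where the call was lost (exact P = 1).

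The remaining receptors had 8 tags or fewer. S1pr2, a receptor for sphingosine 1-phosphate, had 4 tags in resting replicate 1 and 0 in the depolarized libraries, which left a depolarized to resting ratio of up to 1.05 within counting error (pooled exact binomial P = 0.0625). Sstr2, a somatostatin receptor coupled to inhibitory G proteins, had 0 resting tags and 2, 1 and 1 tags in depolarized replicates 1, 2 and 3 (exact P = 0.25). Intervals cover counting error only.

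**Figure D4:**
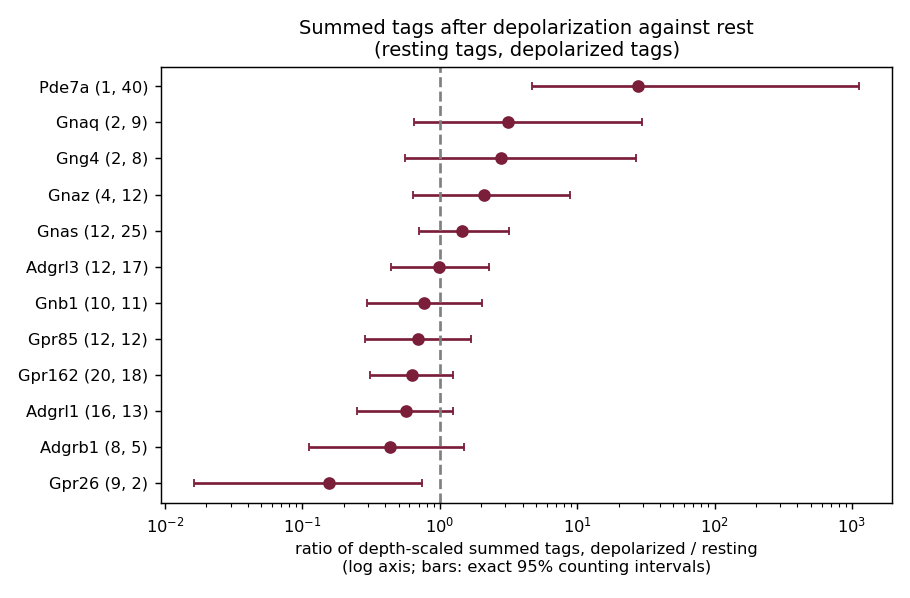
Ratio of depth-scaled summed tags, depolarized over resting, for the 12 members with at least 10 tags (log axis), with exact 95% counting intervals and summed tags beside each name. The intervals cover counting error only. Those of Pde7a and Gpr26 do not include 1 and those of the other 10 do. Depolarized replicate 2 held 40 of the Pde7a tags, and resting replicate 1 held 7 of the Gpr26 tags. How many of all 5′ UTRs have such intervals was not examined.

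Among the G protein subunits, Gnas, the stimulatory alpha subunit of a complex imprinted locus (chr2:174284320-174346744), had 9, 0, 1, 1, 1 and 0 resting tags and 19, 2, 4, 0 and 0 depolarized tags. The 2 replicate 1 libraries held most of them and the groups overlapped. The ratio was 1.45 (0.702 to 3.17), and edgeR gave 0.49 on the log2 scale with an adjusted P of 0.908. The pooled test passed the threshold only with TMM sizes (exact P = 0.132).

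Gnb1, a beta subunit shared by many G protein trimers (chr4:155491361-155559269), had 1, 3, 1, 2, 2 and 1 resting tags and 8, 0, 3, 0 and 0 depolarized tags. It was present in 6 of 6 resting libraries and in 2 of 5 depolarized ones, which were the deepest. Mean CPM was 2943 ± 2741 at rest (n = 6) and 568 ± 781 after depolarization (n = 5; exact two-sided permutation P = 0.0541), the smallest permutation P among the members. By summed tags the ratio was 0.766 (0.295 to 2.01), and the edgeR adjusted P was 0.908. The pooled log2 fold change was -0.38, and it moved to -1.87 without replicate 1, where it passed the threshold (exact P = 0.0923), and to 0.20 without replicate 2.

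Gnaz, Gnaq and Gng4 had higher depth-scaled sums after depolarization with wide intervals. Gnaz, an alpha subunit that inhibits adenylyl cyclase (chr10:74967177-75016907), had 2, 0, 0, 0, 2 and 0 resting and 4, 1, 6, 1 and 0 depolarized tags, a ratio of 2.09 (0.633 to 8.88). Gnaq, which couples receptors to phospholipase C beta (chr19:16132831-16387463), had 2, 0, 0, 0, 0 and 0 and 7, 0, 2, 0 and 0, a ratio of 3.13 (0.648 to 29.8). Gng4, a gamma subunit (chr13:13784059-13827896), had 0, 0, 0, 0, 0 and 2 and 6, 0, 1, 1 and 0, a ratio of 2.78 (0.556 to 26.9). Gnaz was tagged in 4 of 5 depolarized and 2 of 6 resting libraries, whereas Gnaq and Gng4 were at 0 in 5 of 6 resting libraries. Pooled exact P values were 0.302, 0.109 and 0.180, and edgeR adjusted P values were 0.829, 0.836 and 0.862 for Gnaz, Gnaq and Gng4. The pooled log2 fold change of Gng4 was 1.44 with all libraries and -0.31 without replicate 1, and its call was also lost without replicate 4 (1.17) or 5 (1.22) and with all 12 tables as labelled (1.31). It was 6.04 without replicate 6, which held its resting tags. That of Gnaz was 1.05, running from 0.39 without replicate 3 to 1.80 without replicate 5, and it passed the threshold there, without replicate 1 (1.64) and with TMM sizes (1.25). The value for Gnaq was 1.61, and its call was lost without replicate 1 (4.25), 4 (1.53), 5 (1.39) or 6 (1.44) and with all 12 tables as labelled (1.47).

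The G protein modulators and arrestins, 7 members with 7 resting and 21 depolarized tags, had no member with 10. Gprin1, a G protein-regulated inducer of neurite outgrowth, had 1 tag in each of resting replicates 1 and 2 and 2 and 5 in depolarized replicates 1 and 3. Rgs7bp, which anchors RGS7 complexes at the membrane, had 2 tags in resting replicate 1 and 3, 1 and 2 in depolarized replicates 1, 3 and 4. Rgs7 had 1 resting and 5 depolarized tags, all in the replicate 1 pair.

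The cyclases, 6 members, had 12 resting and 8 depolarized tags. Adcy9 had 6 tags in resting replicate 1 and 3 in depolarized replicate 3, and 0 in the other 9 libraries. Adcy8, a calcium-stimulated cyclase, had 1 resting and 3 depolarized tags, and Adcy5 had 2 and 1, all in replicate 1. None of the cyclases was called by the pooled test.

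Pde7a, a phosphodiesterase specific for cAMP (chr3:19223108-19311322), had the most tags of any member. Resting tags were 0, 0, 0, 0, 0 and 1, and depolarized tags 0, 40, 0, 0 and 0. The 40 tags of depolarized replicate 2 were 97.6% of its total, and the deepest library, with 5240 tags, had 0. Mean CPM was 183 ± 447 at rest (n = 6) and 8377 ± 18731 after depolarization (n = 5). The ratio of sums was 27.8 (4.72 to 1127), with a pooled exact P of 2.1e-09. The edgeR log2 fold change was 5.03 ± 1.35 with an adjusted P of 0.0604, and the exact permutation test over libraries gave P = 0.455. The adjusted edgeR P was below 0.05 with library totals (0.0279), without replicate 1 (0.0351) and without replicate 6 (0.0267). It was 0.324 with a term for replicates 1 to 3, 0.331 with 5′ UTRs of at least 5 tags included, and 0.997 with the replicate block, where the log2 fold change was 3.04. By limma that was 0.82, with an adjusted P of 0.462. Without replicate 2, 1 resting and 0 depolarized tags were left and edgeR had too few to test.

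Of the other phosphodiesterases, Pde8b, which has a high affinity for cAMP, had 4 tags in resting replicate 1 and 1 in depolarized replicate 1. Pde1b, which is activated by calmodulin, had 1 and 1. The 3 members that act on phosphoinositide and diacylglycerol signals had tags only after depolarization and only in replicate 1, with 3 for Plcb1 (exact P = 0.25) and 1 each for Dgke and Dgkg. The 4 kinase anchors had 9 resting and 3 depolarized tags. Akap5, the anchor of the postsynaptic density, had 2, 0, 0, 1, 0 and 1 resting and 1, 0, 2, 0 and 0 depolarized tags, and Akap17b had 3 tags in resting replicate 1 and 0 after depolarization (pooled exact P = 0.125, and 0.25 with TMM sizes or without replicate 3, where the call was lost). Akap8 and Akap9 each had 1 tag, in resting replicates 6 and 5.

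Genes of the same pathways outside the symbol families were counted from 4 lists. Of 31 cyclic nucleotide effectors 10 were listed, with 11 resting and 18 depolarized tags, and the pooled test called 1 higher and 1 lower, where over all 5′ UTRs it called 5.21% and 4.51%. Of 24 effectors of diacylglycerol and inositol trisphosphate 5 were listed and 1 was called higher. Of 18 symbols of receptor kinases and chaperones 8 were listed and 1 was called higher. Of 80 symbols of other metabotropic receptors 19 were listed and 1 was called lower. These totals count symbols and not separate genes. The 18 hold older symbols of Grk2 and Grk3, and both Ric8 and Ric8a. The 80 hold an older symbol of Drd1 and older symbols of latrophilins, of which Adgrl1 and Adgrl3 are members here. The called genes, named here after their values were seen, were Prkar2a (a regulatory subunit of protein kinase A, 1 and 7 tags), Pkig (a protein kinase A inhibitor, 3 and 0), Prkca (protein kinase C alpha, 1 and 7), Gprasp2 (a receptor sorting protein, 2 and 10) and Gabbr1 (a GABA-B receptor subunit, 9 and 4). Of the lists' genes edgeR could test 4, Prkce, Gprasp1, Gprasp2 and Gabbr1, and their adjusted P values were 0.995, 0.956, 0.716 and 0.829.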

How the data were processed

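eIF4G2 CLIP tags were counted per 5′ UTR. The authors aligned collapsed single-end reads to mm10 and deposited raw counts of tags on the 5′ UTR of each gene's longest transcript, without normalization. The submitters' processing notes name cutadapt, with no version. The rule by which 5′ UTRs were listed and the handling of reads with several matches are not given in the sources used here, so counts of overlapping or near-identical genes, Gnas among them, are uncertain. Of 3367 entries 1 had no gene name and 0 tags. The paper gives fewer replicates than the 6 per condition in the labels. It calls replicates biological, and no other source says they are separate cultures.

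Tags were scaled to the library total of 5′ UTR tags as CPM. The paper states depth normalization, a pseudocount of 0.1 for log2 fold changes, a binomial test and P below 0.2. Here the sums for each condition were brought to a common total (the mean of both), rounded and compared by a two-sided exact binomial test. No molecular identifiers are stated. Ratio intervals are exact 95% intervals. The edgeR quasi-likelihood test (edgeR 4.0.16, R 4.3.3) used TMM, Benjamini-Hochberg adjustment over 317 5′ UTRs with at least 10 tags, and condition as the term. DESeq2 1.42.0, limma 3.58.1 and an exact permutation test over 462 splits (smallest P 0.00216) were alternatives. DESeq2 gave no adjusted P for 2 5′ UTRs, among them Pde7a, which had no P value at all. Code was tested on simulated data. Python 3.11.15 with scipy 1.17.1 and matplotlib 3.10.9 was used.

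The labels say that the resting and depolarized samples of a replicate were pooled after reverse transcription. Deviations from the group means correlated at 0.254, 0.180, 0.109, 0.170 and 0.151 in replicates 1, 2, 3, 4 and 6, so the numbers were taken to pair the libraries.

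The 5′ UTR properties come from the longest protein-coding transcript of GENCODE M21, matched by symbol, which may differ from the transcript the authors counted on. Values per kb leave out 5′ UTRs under 20 bases, 2 of them members. The members, role groups, pathway and marker lists and tests were chosen with earlier results of these data known. Named members are Pde7a and Gpr26, all with at least 10 tags, the 3 with most tags in each role group, the 5 with the smallest pooled P in each direction and the 5 in the most libraries. A gene of these families is not reported here.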

Additional observations from a re-analysis of the deposited data

Results flagged for a closer look

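A single library stood far from the rest of its condition in 10 of 34 sets of values examined. Chance gives about 1.7 for continuous values, a rate that does not hold where most libraries are at 0, since any tag then stands apart. In total tags it was resting replicate 1, with 3224 against 928 in the next library. In the share of tags on G protein subunits it was resting replicate 3, at 1.63% against 0.809%.

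Pde7a stood out in both conditions, at 1095 CPM in resting replicate 6 and at 41885 CPM in depolarized replicate 2, with every other library at 0. So did Adgrb1, at 9804 CPM in resting replicate 3 (next 1551) and at 954 CPM in depolarized replicate 1 (next 0). Among the other receptors, Gpr162 was at 0 in resting replicate 4 where the next lowest library had 2695 CPM. Of the G protein subunits, Gnaz reached 2155 CPM in resting replicate 5 (next 620), Gnaq 620 CPM in resting replicate 1 (next 0) and Gng4 2191 CPM in resting replicate 6 (next 0). In libraries of this depth 1 or 2 tags suffice for such a gap, as in Gng4, Gnaq and Gnaz, whereas the Pde7a value in depolarized replicate 2 rests on 40 tags.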

How the results depend on the processing

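Of the single-member fold changes under the alternatives tallied, 232 kept direction and side of the threshold, 12 passed it newly, 18 fell short and 20 turned direction. For the pooled test the tally took in TMM sizes, a pseudocount of 1, all 12 tables as labelled and each replicate left out, and no other setting. Pde7a by DESeq2, which had no P value, was counted among those kept. The pooled test, with 3 higher and 5 lower members, gave 1 higher and 1 lower at P below 0.05 (2.56% and 1.25% of all 5′ UTRs), 1 and 0 when the threshold of 0.05 was put on adjusted P (0.427% and 0.305%), and 6 and 2 with TMM sizes (7.1% and 2.74%). The higher numbered 1 with all 12 tables as labelled (5.03% of all), and the lower numbered 14 of 69 with raw sums (10.9% of all), 3 of 12 with at least 10 tags (12.3%), 9 of 61 in replicates 1 to 3 (5.06%) and 1 of 24 in replicates 4 to 6 (1.44%). With each replicate number left out the counts ran from 1 (without replicate 4, with 5.12% of all) to 3 higher and from 2 (without replicate 1, 2.1%) to 8 (without replicate 5, 4.26%) lower. The edgeR count of 0 became 1 higher, Pde7a, with library totals (adjusted P = 0.0279, with 0.315% of all called), and ran from 0 to 1 with a replicate left out (1 without replicate 1 or 6, at adjusted P values of 0.0351 and 0.0267, with 6.48% and 0.339% of all called). Over all settings the adjusted P of Pde7a ran up to 0.997, and it could not be tested by edgeR without replicate 2. With the replicate block, 0 members were called, also at an unadjusted P, Pde7a had a log2 fold change of 3.04 with an edgeR adjusted P of 0.997, Adgrl1 turned to 0.24, and the block changed no other call.

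The edgeR log2 fold change turned to 0.28 by limma for Gpr162, and to -0.31 by DESeq2, -0.21 with library totals and -0.047 with at least 5 tags for Adgrl3. With a replicate left out it ran from -0.62 to 0.19 for Gpr162, from -1.23 to 0.049 for Adgrl1 and from -0.43 to 0.55 for Adgrl3. The pooled log2 fold change of Adgrl3 was 0.18 with TMM and 0.0030 with all 12 tables, and with a replicate left out it ran from -0.73 to 0.38 for Adgrl3, from -1.87 to 0.20 for Gnb1, from -0.31 to 6.04 for Gng4, from -0.84 to 0.0010 for Gpr162 and from -3.68 to 8.34 for Pde7a. The causes of these turns were not tested. The difference in member share between conditions, -0.27 percentage points, was -1.18 without replicate 2, 0.23 without replicate 3 and 0.096 without replicate 6, all less than 1 SD away. The hexamer was in 52.2% of members with the longest 5′ UTR of any transcript. The member median lay below that over all in 13 of 13 edgeR fits, in both the DESeq2 and the limma fit, and in 12 of the 13 pooled settings whose medians could differ, and equalled it in the other. These settings refit the same libraries and members, so the tally is not repeated evidence, and members are not replicates. The median member had 2 tags, so the pooled medians rest on very small counts.

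Depth limits what can be seen: 34 of 69 members had tags in 1 library only (49.3%, compared with 53.2% of all listed 5′ UTRs), and in the shallowest library 2 members had a tag.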
